A study of Bos taurus with 6 samples.

Results

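The thin filament of the sarcomere was examined in beef muscle, the longissimus dorsi, of 2 breeds, Shandong black (B) and Luxi (L), through 10 genes that encode its actins, its tropomyosins, nebulin and the proteins at its pointed end. The genes were ACTA1, ACTC1, TPM1, TPM2, TPM3, NEB, TMOD1, TMOD4, LMOD2 and LMOD3, chosen by name from the 18010 genes of the deposited transcript files. All 10 were found, and all 10 were among the 9781 genes tested, whose mean FPKM reached 1 in either breed or both. FPKM, which counts fragments by the kilobase of a transcript and against the whole library, corrects a level for transcript length and for the size of the library. The genes were proposed with the breed comparison of these animals in view, so their breed differences are given as a description, without a p-value.

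The 6 libraries came from 3 Shandong black cattle and 3 Luxi cattle of 18 months, with 1 library for each animal, made from the total RNA of muscle. Shandong black cattle is a breed built from Japanese black, Luxi and Bohai black cattle, so it carries Luxi ancestry, and Luxi cattle is a local Chinese yellow breed. The animals received no treatment. The study drew the breeds from different suppliers, and breed and supplier cannot be told apart. The labels do not give the sex of the animals. The study as a whole asked about lipid metabolism genes of beef.

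In skeletal muscle, the thin filament is a double strand of actin on which tropomyosin lies end to end and carries the troponin complex, and calcium binding to troponin moves tropomyosin and lets myosin bind. ACTA1 encodes skeletal alpha-actin, the main actin of adult skeletal muscle, and ACTC1 encodes cardiac alpha-actin, which is abundant in the heart and in developing skeletal muscle. TPM1 and TPM3 encode the alpha-tropomyosins known best from fast and slow fibres, respectively, and TPM2 encodes beta-tropomyosin. Nebulin runs along the filament, tropomodulins cap its pointed end, and leiomodins promote the assembly of actin there.

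The libraries rested on 14.1 to 14.6 gigabases of aligned sequence in Shandong black cattle and on 17.5 to 17.99 gigabases in Luxi cattle. The skeletal muscle identity of the samples was plain in the data, with creatine kinase (CKM) between 1832 and 6718 FPKM and myoglobin (MB) between 5733 and 8932 FPKM over the 6 animals. Luxi 1 stood apart from Luxi 2 and Luxi 3 in many of the genes described here, and the difference between the breeds is therefore also given without it. Luxi 1 was picked after its levels were seen, so calls gained without it are a description and no separate evidence of a breed difference. Of all tested genes, 251 were called, with an adjusted p under 0.05 and at least a 2-fold difference, a log2 value of 1 in size (limma), and 597 without Luxi 1. Without Shandong black 3, the count was 3. The non-coding RNA XIST, taken as a marker of sex, ranged from 4.83 to 14.0 FPKM in Shandong black cattle. In Luxi cattle, it ranged from 0 to 0.207 FPKM. A difference by sex and a difference by breed therefore cannot be told apart in any gene here.

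The 10 genes together held a large part of the muscle transcriptome. Their summed FPKM was 11.3%, 13.4% and 12.5% of the library in Shandong black 1, 2 and 3, and 5.55%, 15.4% and 13.2% in Luxi 1, 2 and 3. ACTA1 alone held between 4.12% of the library in Luxi 1 and 13.4% in Luxi 2. Within the 10 genes, ACTA1 made up between 74.1% of the sum in Luxi 1 and 89.0% in Shandong black 2.

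The level per length was ordered over the 6 animals with ACTA1 first and TPM2 next. ACTA1 was above TPM2 in 6 of 6 animals, by 3.62 ± 0.46 (SD, n = 6) on the log2(FPKM + 1) scale. TPM2 was above TPM3 in 6 of 6 animals, by 2.22 ± 1.11. In an exact two-sided paired permutation test over the animals, both pairs gave p = 0.03125, the smallest that 6 animals allow, and an adjusted p of 0.141 over the 9 pairs of neighbours. The other 7 pairs of neighbours, TPM3 and TPM1, TPM1 and NEB, NEB and TMOD4, TMOD4 and LMOD2, LMOD2 and ACTC1, ACTC1 and LMOD3, and LMOD3 and TMOD1, did not differ beyond their spread over the animals (exact p between 0.219 and 1). Neighbours were picked by rank in these same animals, which set the direction of every pair, so a low p is no separate evidence of their order. Since the test also pooled the breeds, a high p does not show equal levels. ACTC1 was above LMOD3 in every Shandong black animal and below it in every Luxi animal. The means of the genes below TPM2 had another order in each breed. In Shandong black cattle, the order was TPM3, ACTC1, NEB, LMOD2, TPM1, TMOD4, TMOD1 and LMOD3, whereas in Luxi cattle it was TPM1, TPM3, TMOD4, NEB, LMOD2, LMOD3, TMOD1 and ACTC1. The ranges of neighbours overlapped in 5 of 9 pairs in Shandong black cattle and in 6 of 9 pairs in Luxi cattle, so most neighbours are not set apart. ACTC1 ranked 4 by its mean in Shandong black cattle and 10, the last place, in Luxi cattle, where it was below its neighbour TMOD1 in 3 of 3 animals.

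**Figure D1:**
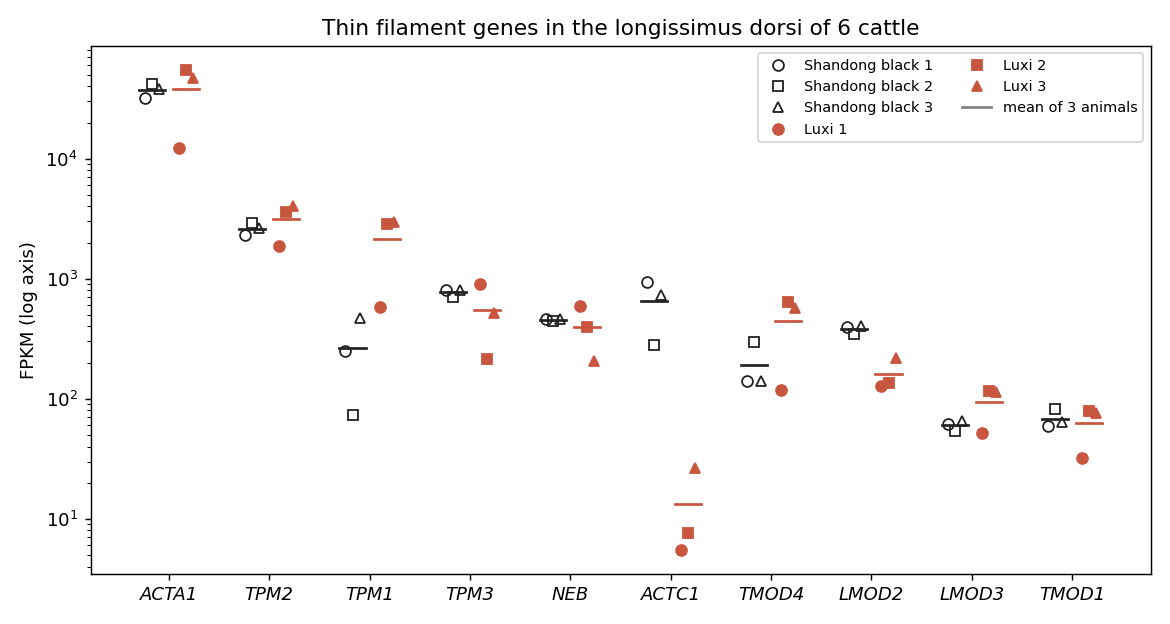
FPKM of the 10 thin filament genes (log axis) in each of the 6 animals, with open black symbols for Shandong black cattle, filled red symbols for Luxi cattle and a line at the mean of 3 animals. ACTC1 and LMOD2 lie lower in all Luxi animals than in any Shandong black animal, TPM1 lies higher, and the symbols of the other 7 genes overlap between the breeds.

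Of the sarcomeric actins, ACTA1 overlapped between the breeds and ACTC1 did not. ACTA1 (chromosome 28, 1400443 to 1403202, minus strand, ARS-UCD1.2) was at 32188, 41650 and 38234 FPKM in Shandong black 1, 2 and 3. In Luxi 1, 2 and 3, it was at 12237, 54910 and 47110 FPKM. The Luxi animals thus held the lowest and the 2 highest levels of the 6, and the means of 37358 ± 4792 and 38085 ± 22723 FPKM (SD, n = 3 each) lay close together. The log2 difference, Luxi minus Shandong black on the log2(FPKM + 1) scale as in all differences here, was −0.23 with a standard error (SE) of 0.78. Without Luxi 1, it was 0.45.

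ACTC1 (chromosome 10, 30288631 to 30293908, minus strand) was measured on a single reference transcript of 7 exons. It was at 946, 278 and 735 FPKM in the Shandong black animals and at 5.53, 7.62 and 26.7 FPKM in the Luxi animals. Every Shandong black animal was above every Luxi animal, with about 10 times between the nearest pair, Shandong black 2 and Luxi 3. The means were 653 ± 341 and 13.3 ± 11.7 FPKM (SD, n = 3 each), and the log2 difference was −5.64 (SE 0.65). Without Luxi 1, the difference was −5.23. Leaving out Shandong black 1, Shandong black 3 or Luxi 2 ended the call, with log2 differences of −5.29, −5.47 and −5.43.

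The depth of reads on the exons shows how the signal of ACTC1 was spread along its transcript. With a single transcript, the FPKM of ACTC1 follows from this same depth, so the depth is no separate check of it. In units of depth per gigabase aligned, the mean over its 5 inner exons was 1137, 340 and 885 in Shandong black 1, 2 and 3. In the Luxi animals, it was 6.17, 9.03 and 31.1. The first exon, at 42.5 to 299 against 1.26 to 8.29, and the last exon, at 125 to 457 against 4.10 to 16.1, also did not overlap between the breeds. The signal of ACTC1 was therefore spread over the whole transcript in both breeds. ACTC1 and ACTA1 encode nearly the same protein, and how many reads of the much more abundant ACTA1 were counted at ACTC1 was not tested.

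**Figure D2:**
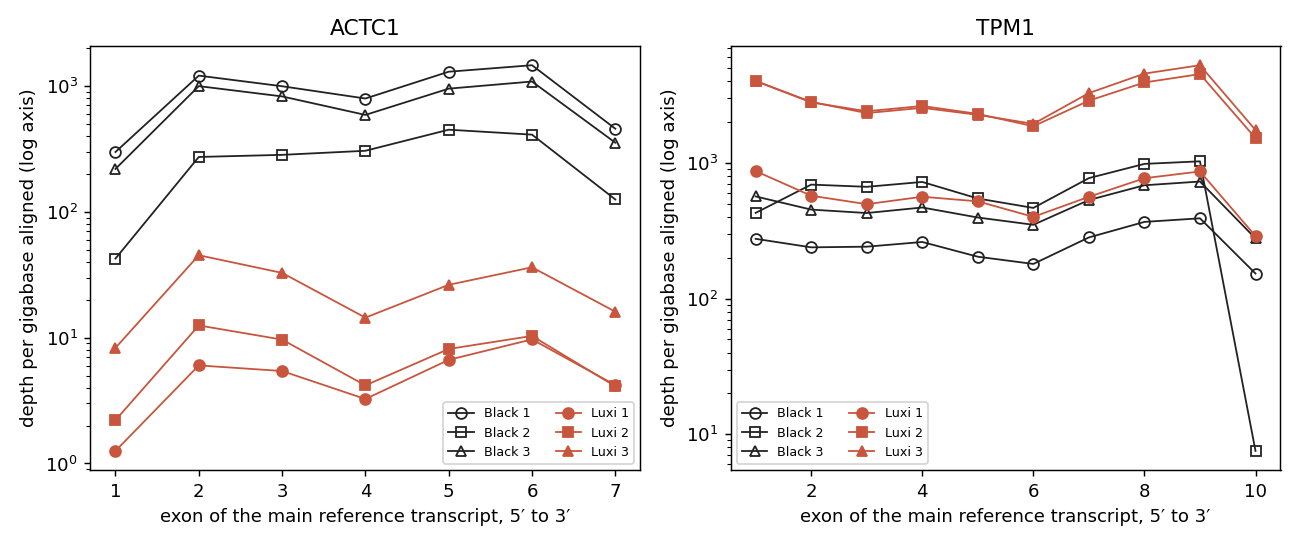
Depth per gigabase aligned (log axis) on each exon of the main reference transcript of ACTC1 (left) and TPM1 (right), 5′ to 3′, with 1 line per animal. The Shandong black and Luxi lines of ACTC1 do not cross on any of the 7 exons. On exons 2 to 9 of TPM1, Shandong black 2 lies above Luxi 1. Each value counts only exons with exactly the same ends, so the low value of Shandong black 2 on exon 10 need not be its full depth.

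As a share of the 2 sarcomeric actin genes, ACTC1 was a minor part in every animal. It made up 2.86%, 0.664% and 1.89% of the summed FPKM of ACTA1 and ACTC1 in Shandong black 1, 2 and 3. In Luxi 1, 2 and 3, it made up 0.0452%, 0.0139% and 0.0567%. This share is a ratio within a library and does not depend on how the libraries were scaled.

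ACTC1 is also a gene of the heart and of immature muscle, and other genes of these tissues were looked at beside it. Of 10 cardiac markers, 4 were analysed. The cardiac myosin MYH6 was at most 0.00169 FPKM, the atrial light chain MYL4 at most 0.437 FPKM and cardiac troponin T (TNNT2) between 0.298 and 2.80 FPKM, while phospholamban (PLN), which slow skeletal fibres also express, was between 16.3 and 196 FPKM. Embryonic myosin (MYH3) was at most 1.04 FPKM. Perinatal myosin (MYH8) was at 1.43, 104 and 23.9 FPKM in Shandong black 1, 2 and 3 and at 0.0140, 415 and 349 FPKM in Luxi 1, 2 and 3, so it was high in Luxi 2 and Luxi 3 and lowest in Luxi 1. The myogenic regulator myogenin (MYOG) was at 51.5, 12.4 and 42.2 FPKM in the Shandong black animals and at 1.15, 7.89 and 24.4 FPKM in the Luxi animals, so the breeds overlapped. Over all 8 markers of immature muscle, of which 4 were tested, the summed FPKM was 75.9 to 148 in Shandong black cattle and 21.1 to 437 in Luxi cattle, and 0 were called. Its part in the level of ACTC1 was not tested.

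The tropomyosin genes differed between the breeds in their FPKM proportions. TPM1 (chromosome 10, 46993263 to 47022966, minus strand) was at 249, 72.8 and 471 FPKM in Shandong black 1, 2 and 3 and at 585, 2832 and 2978 FPKM in Luxi 1, 2 and 3. The deposited values of the breeds did not overlap, with a narrow gap between Shandong black 3 and Luxi 1. The log2 difference was 3.05 (SE 0.87), which did not pass the call, and it was 3.82 without Luxi 1, the only setting where it did.

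The value of TPM1 in Shandong black 2 was lower than the deposited depth on its exons. Its main reference transcript had 10 exons, and in this animal the length-weighted mean coverage of these exons was 5.45 times the coverage given for the transcript. Among the 170 transcripts of the 10 genes with at least 5 FPKM, counted over the 6 libraries, this ratio was outside 0.8 to 1.2 in 2. In the same animal, 2 assembled transcripts of 7160 and 7310 bases at TPM1, with 39.2% and 38.4% of their bases on its exons and 41.8 and 19.5 FPKM, fell short of the 50% needed to be counted. From exon coverage, TPM1 was at 301 FPKM in Shandong black 2 and the log2 difference was 2.37. On its 8 inner exons, with all transcripts summed, the depth per gigabase was 265, 725 and 493 in the Shandong black animals and 584, 2848 and 3003 in the Luxi animals. On this measure, Shandong black 2 lay above Luxi 1, so the breeds overlapped, and the log2 difference was 1.90. In this animal, the value for exon 10 was 7.53 against 1027 for exon 9. Only exons with exactly the same ends were counted, so 7.53 need not be the full depth of reads there.

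TPM2 (chromosome 8, 59856499 to 59864046, minus strand) was the most abundant tropomyosin in all 6 animals. It was at 2305, 2893 and 2651 FPKM in the Shandong black animals and at 1861, 3576 and 4041 FPKM in the Luxi animals, with a log2 difference of 0.20 (SE 0.47). The breeds overlapped because Luxi 1 was the lowest of the 6 animals. In the Shandong black animals and Luxi 3, nearly all of TPM2 was listed under an assembled transcript, and in Luxi 1 and Luxi 2 under a reference transcript. With reference transcripts only, the log2 difference was 3.68, a change that comes from which transcripts are counted.

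TPM3 (chromosome 3, 16318497 to 16346046, plus strand) was at 806, 699 and 807 FPKM in Shandong black 1, 2 and 3. In Luxi 1, 2 and 3, it was at 906, 213 and 520 FPKM. Luxi 1 was the highest and Luxi 2 the lowest of the 6 animals, and the log2 difference was −0.72 (SE 0.54). Without Luxi 1, it was −1.20.

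Within the tropomyosins, the FPKM share of TPM1 was higher and that of TPM2 lower in all Luxi animals than in any Shandong black animal. TPM1 made up 7.40%, 1.99% and 12.0% of the summed FPKM of TPM1, TPM2 and TPM3 in Shandong black 1, 2 and 3, and 17.5%, 42.8% and 39.5% in Luxi 1, 2 and 3. From exon coverage, the share of TPM1 in Shandong black 2 was 7.74%, below every Luxi animal, but without the 2 assembled transcripts left out at TPM1. On the depth of inner exons, with all transcripts summed, TPM1, TPM2 and TPM3 were at 725, 6262 and 888 in Shandong black 2. In Luxi 1, they were at 584, 5055 and 1135, so on this measure the share of TPM1 did not set the breeds apart. By FPKM, TPM2 made up 68.6%, 78.9% and 67.5% in the Shandong black animals and 55.5%, 54.0% and 53.6% in the Luxi animals. TPM3 made up 24.0%, 19.1% and 20.5% in the Shandong black animals and 27.0%, 3.22% and 6.89% in the Luxi animals. Luxi 2 and Luxi 3 thus differed from the other 4 animals in having a low FPKM share of TPM3 and a high FPKM share of TPM1. The summed FPKM of the 3 genes overlapped between the breeds, at 3360 to 3928 in Shandong black cattle and 3352 to 7539 in Luxi cattle.

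**Figure D3:**
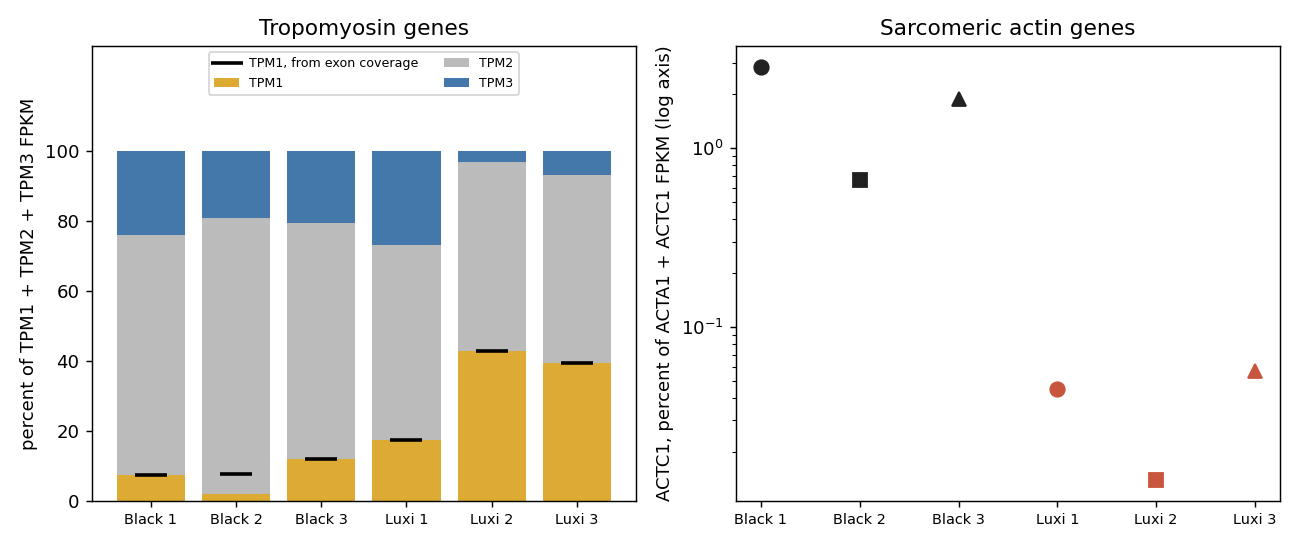
Left, percent of the summed FPKM of TPM1, TPM2 and TPM3 held by each gene in each animal, with a black line at the share of TPM1 computed from exon coverage. Right, ACTC1 as percent of the summed FPKM of ACTA1 and ACTC1 (log axis). The share of TPM1 is largest in Luxi 2 and Luxi 3, and that of ACTC1 lies above 0.6% in the Shandong black animals and below 0.06% in the Luxi animals.

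Each of these 3 tropomyosin genes has a pair of mutually exclusive internal exons of 76 bases. In all 6 animals, 1 exon of each pair held almost all of the depth. The used exon of TPM1 (chromosome 10, 47003470 to 47003545) held 98.6% to 100% of the depth of its pair, that of TPM2 (chromosome 8, 59859201 to 59859276) 99.5% to 99.9%, and that of TPM3 (chromosome 3, 16334337 to 16334412) 96.1% to 100%. The lowest shares belonged to Luxi 1 for TPM1 and TPM2 and to Luxi 2 for TPM3. The choice at this exon pair was thus nearly the same in every animal, whatever the level of the gene.

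NEB (chromosome 2, 44432998 to 44652244, plus strand), which encodes nebulin, was at 458, 440 and 463 FPKM in Shandong black 1, 2 and 3. In Luxi 1, 2 and 3, it was at 590, 399 and 205 FPKM. Nebulin thus varied little among the Shandong black animals, with a mean of 454 ± 12.0 FPKM, and much among the Luxi animals, with 398 ± 193 FPKM (SD, n = 3 each). The breeds overlapped and the log2 difference was −0.32 (SE 0.44). Almost all of NEB in Luxi 2 and Luxi 3 was listed under assembled transcripts, and with reference transcripts only the log2 difference was −4.78. Depth on its 170 inner exons, which does not depend on the names of transcripts, gave −0.34.

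At the pointed end, the tropomodulins overlapped between the breeds. TMOD1 (chromosome 8, 62722979 to 62812715, plus strand) was at 59.1, 81.7 and 64.2 FPKM in the Shandong black animals and at 32.1, 78.8 and 75.8 FPKM in the Luxi animals, with a log2 difference of −0.22 (SE 0.39). TMOD4 (chromosome 3, 19636734 to 19641926, plus strand), the tropomodulin typical of fast skeletal fibres, was at 140, 296 and 140 FPKM in the Shandong black animals and at 118, 638 and 572 FPKM in the Luxi animals. Its log2 difference was 0.96 (SE 0.69), and it was 1.74 and passed the call without Luxi 1, and under no other setting. The lowest level of both genes was that of Luxi 1. The ratio of TMOD4 to TMOD1 was 2.37, 3.62 and 2.18 in Shandong black 1, 2 and 3 and 3.68, 8.09 and 7.55 in Luxi 1, 2 and 3, so that the breeds did not overlap in this ratio, by a narrow margin at Shandong black 2 and Luxi 1, although they did in each gene alone.

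Of the leiomodins, LMOD2 did not overlap between the breeds and LMOD3 did, and neither passed the call. LMOD2 (chromosome 4, 87959332 to 87968300, plus strand) was at 394, 348 and 402 FPKM in Shandong black 1, 2 and 3 and at 127, 136 and 220 FPKM in Luxi 1, 2 and 3. The breeds did not overlap, and the log2 difference was −1.28 (SE 0.33). It was −1.14 without Luxi 1, so that LMOD2 depended little on that animal. LMOD2 passed the call with TPM (−1.41) and with quantile normalization (−1.45). LMOD3 (chromosome 22, 32417250 to 32434415, plus strand), the leiomodin whose loss in people causes nemaline myopathy, was at 62.1, 53.8 and 65.0 FPKM in the Shandong black animals and at 51.4, 115 and 113 FPKM in the Luxi animals, with a log2 difference of 0.54 (SE 0.36). The breeds overlapped in Luxi 1 only. The ratio of LMOD2 to LMOD3 was nearly constant in Shandong black cattle, at 6.36, 6.47 and 6.19, and was lower in Luxi cattle, at 2.47, 1.18 and 1.94.

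Over the 10 genes, 1 was called, ACTC1, beside 2.57% of all genes tested. The breeds did not overlap in 3 of the 10, beside 29.1% of all genes tested. At least a 2-fold difference was seen in the same 3, ACTC1, TPM1 and LMOD2, beside 8.06%. On the depth of its inner exons, TPM1 overlapped between the breeds. Of the 10 differences, 4 were above 0 and 6 below, with a median of −0.23 beside 0.13 over all genes tested. These counts describe genes chosen with this comparison in view. None of the 10 differences changed sign with another scaling, pseudocount, filter or choice of transcripts, and those of ACTA1, TPM2, NEB and TMOD1 did when 1 animal was left out.

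**Figure D4:**
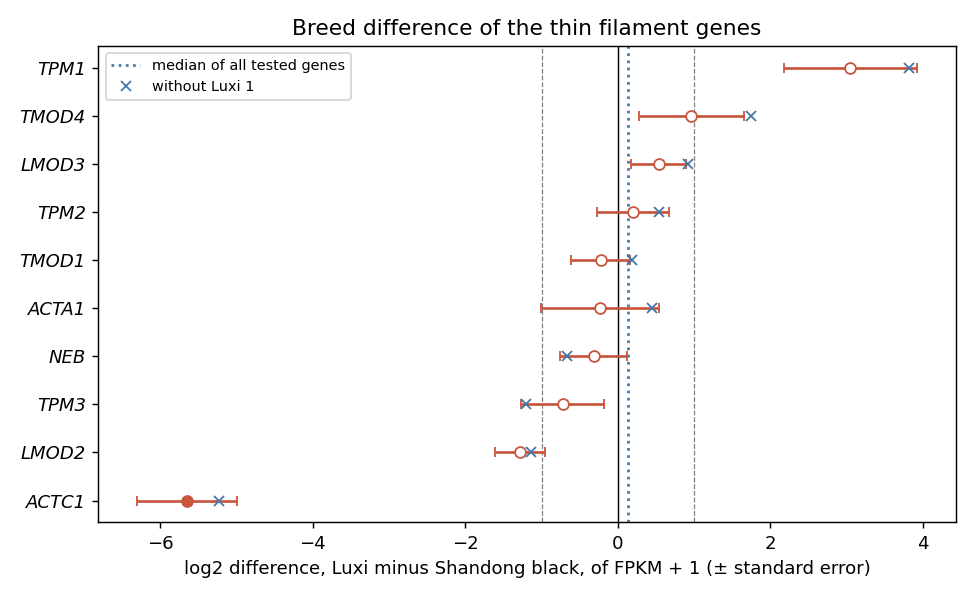
Log2 difference of FPKM + 1, Luxi minus Shandong black, of the 10 thin filament genes, with the standard error as bars, a filled point for ACTC1, which was called, and a cross for the value without Luxi 1. The dotted line is the median of all tested genes (0.13) and the dashed lines mark a 2-fold difference either way.

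The Luxi animals varied more among themselves in these genes than the Shandong black animals did. The median SD of log2(FPKM + 1) over the 10 genes was 0.18 for the Shandong black animals and 0.91 for the Luxi animals, beside 0.19 and 0.31 over all genes tested. The SD was larger in Luxi cattle for 9 of the 10 genes, with TPM1 the exception, beside 68.2% of all genes. The exception rests on the value of Shandong black 2, since from exon coverage the SD of TPM1 was 0.47 for the Shandong black animals and 1.33 for the Luxi animals. The part of single animals in this spread was not measured. In ACTC1 and LMOD2, Luxi 3 lay furthest from the other Luxi animals. Luxi 1 was the lowest of the 6 animals in 7 of the 10 genes and the highest of the 6 in TPM3 and NEB, and it was the lowest Luxi animal in 8 of them, beside 47.2% of all genes tested. Luxi 1 also had the highest summed FPKM of smooth muscle and mural cell markers (318, against 98.8 to 136 in the other 5 animals) and of endothelial markers (57.7, against 14.5 to 29.8). The part of these cells in its levels was not tested, and fewer fibres of a type and less RNA in each fibre cannot be told apart in such samples.

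The summed slow fibre markers were lower in all Luxi animals, and the summed fast fibre markers were higher in Luxi 2 and Luxi 3 only. The summed FPKM of 9 slow fibre genes was 32830, 26305 and 28567 in Shandong black 1, 2 and 3 and 12167, 3236 and 13587 in Luxi 1, 2 and 3. Of these 9 genes, 8 were lower in Luxi cattle and 1 was called, the slow troponin I gene TNNI1, while the slow light chain MYL3 had a log2 difference of 3.33. MYL2 was the largest part of the slow sum in every animal. It was at 16912 to 24908.5 FPKM in Shandong black cattle and at 1513 to 7936 FPKM in Luxi cattle. MYH7 and ATP2A2 overlapped between the breeds. The summed FPKM of 10 fast fibre genes was 4081, 5665 and 6659 in the Shandong black animals and 5475, 32440 and 30379 in the Luxi animals. All 10 were higher in Luxi cattle and 0 were called. In this sum, Luxi 1 thus lay within the range of the Shandong black animals, although it lay above them in 3 of the genes, TNNT3, TNNI2 and ATP2A1, and below them in TNNC2. Luxi 1 was also within their range in the exon depth of TPM1 and just below it in TMOD4 and LMOD3. Fat cell markers were lower in Luxi cattle in 5 of 6 genes, with 4 called and sums of 126 to 191 FPKM in Shandong black cattle and 35.4 to 53.5 FPKM in Luxi cattle. Fibroblast markers were higher in 5 of 5, with 2 called and sums of 109 to 159 and 376 to 502 FPKM. Their part in the differences of the thin filament genes was not tested.

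The other genes of the thin filament and its assembly were compared in 5 lists of 44 genes, of which 38 were tested. Among these, 0 were called higher and 3 were called lower in Luxi cattle, beside 1.54% and 1.02% of all genes tested. Their median log2 difference was 0.26, and 19 of the 38 did not overlap between the breeds, beside 29.1%. With TPM, size factors or quantile normalization 6 were called, and with no filter or reference transcripts only 0 were called.

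Of the troponins, which sit on tropomyosin and sense calcium, 7 were tested and only TNNI1 was called. TNNI1, the slow inhibitory subunit, was at 438, 590 and 490 FPKM in Shandong black 1, 2 and 3 and at 88.3, 58.5 and 190 FPKM in Luxi 1, 2 and 3 (log2 difference −2.32, SE 0.46, adjusted p = 0.0471 in limma). The fast subunits TNNT3 and TNNI2 were higher in all Luxi animals than in any Shandong black animal, with log2 differences of 2.95 (SE 0.81, adjusted p = 0.101, limma) and 2.12 (SE 0.68, adjusted p = 0.134). Neither passed the test. The fast calcium-binding subunit TNNC2 overlapped between the breeds, with Luxi 1 at 129 FPKM below the Shandong black range of 220 to 863 FPKM and a log2 difference of 1.76 (SE 1.39). Without Luxi 1, TNNI2 (2.73) and TNNC2 (3.50) passed.

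Among the other actins and tropomyosin 4, 5 were tested and 0 called. The values of largest size were those of TPM4 (0.85, SE 0.54), the smooth muscle actin ACTG2 (0.70, SE 0.23) and the vascular actin ACTA2 (0.23, SE 0.49). None of the non-sarcomeric actins thus showed a difference of the size seen for ACTC1. Among capping proteins and relatives of the tropomodulins, 6 were tested and 0 called. The smooth muscle leiomodin LMOD1 was at 1.66 (SE 0.53), the barbed-end capping subunit CAPZB at 0.66 (SE 0.29) and CAPZA2 at 0.45 (SE 0.32).

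Of 16 tested genes of thin filament assembly and turnover, 2 were called, both lower in Luxi cattle. NRAP, an actin-binding protein of forming myofibrils, was at 965, 677 and 878 FPKM in Shandong black 1, 2 and 3 and at 197, 259 and 283 FPKM in Luxi 1, 2 and 3 (log2 difference −1.77, SE 0.33, adjusted p = 0.0429 in limma). The formin FHOD3, which promotes the growth of sarcomeric actin filaments, was at 19.9, 16.2 and 17.8 FPKM in the Shandong black animals and at 7.23, 8.80 and 9.33 FPKM in the Luxi animals (log2 difference −1.01, SE 0.19, adjusted p = 0.0438 in limma). XIRP2, which binds actin at the junctions of myofibrils, had the largest difference of this list (−2.24, SE 0.47) and did not pass (adjusted p = 0.0558, limma). The calls rested on few animals. Under 15 alternative settings, TNNI1 stayed called in 7, NRAP in 7 and FHOD3 in 4, and their adjusted p-values ranged up to 0.192, 0.204 and 0.198, respectively.

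The 4 tested genes of the serum response factor pathway, which switches on actin genes, were all higher in Luxi cattle and 0 were called. The coactivator MKL1 was at 1.13 (SE 0.33), its activator ABRA at 0.68 (SE 0.25) and the coactivator MKL2 at 0.64 (SE 0.18) in log2 difference, and MKL1 passed without Luxi 1 (1.53).

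**Figure D5:**
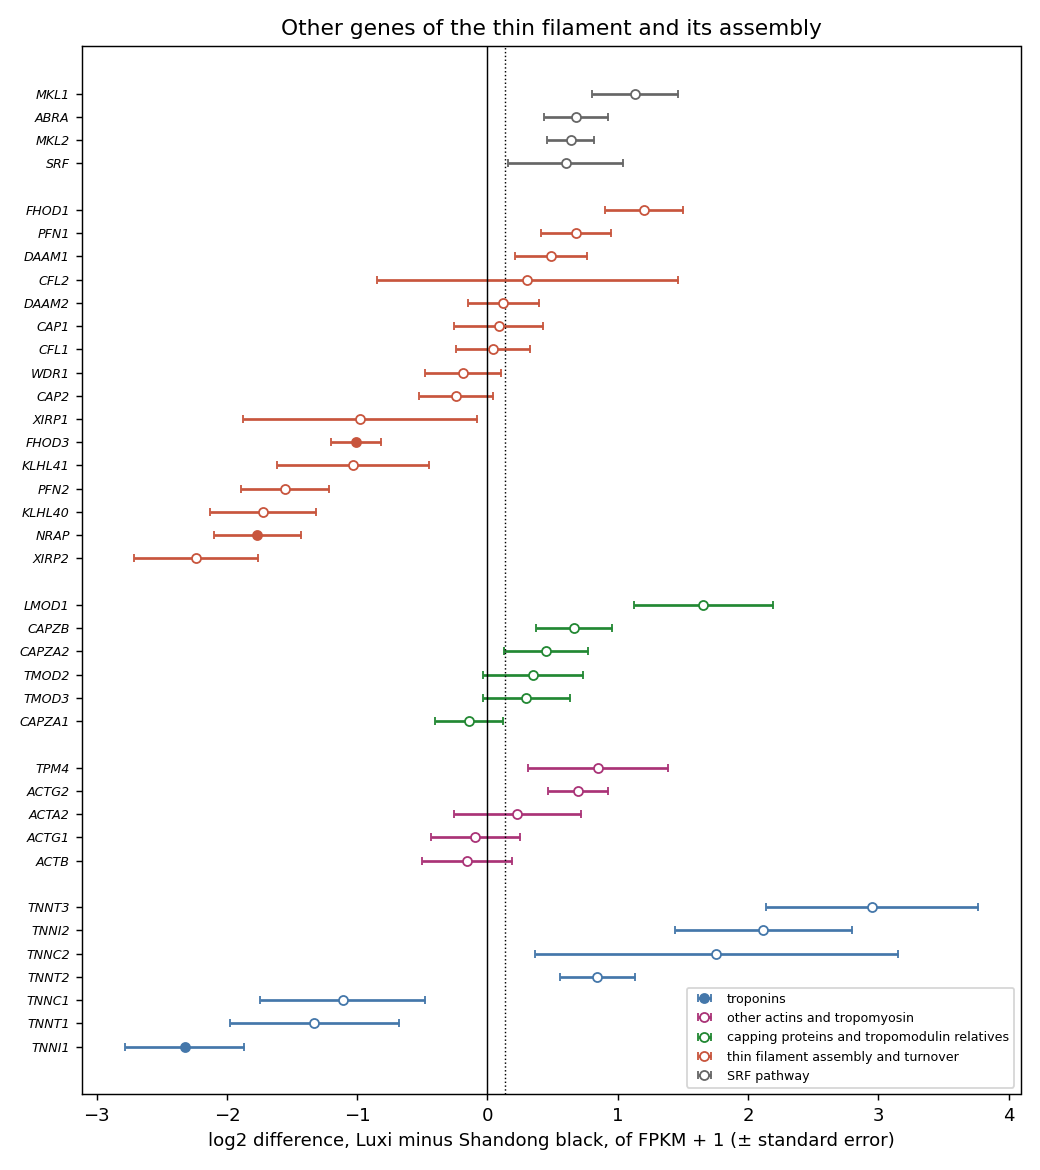
Log2 difference of FPKM + 1, Luxi minus Shandong black, with its standard error for the 38 tested genes of 5 lists of the thin filament and its assembly, with filled points for TNNI1, NRAP and FHOD3, which were called. The dotted line is the median of all tested genes (0.13).

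The genes whose pattern over the 6 animals was most like that of ACTA1, ACTC1 and TPM3 were sought among 2166 other genes with a mean of at least 10 FPKM. Pearson's r of log2(FPKM + 1) was used as a measure of likeness over 6 points that share their libraries and, in part, the breed difference. What the nearest genes share with their member, calls included, follows from this choice and is no separate result. For ACTA1, the 5 nearest genes were CLPP (r = 0.998), FIBP, MAP2K2, MYOM2 and SRP68 (r = 0.992), all of which shared its low level in Luxi 1. CLPP, a mitochondrial protease, was at 14.1, 19.0 and 16.6 FPKM in Shandong black 1, 2 and 3 and at 3.38, 24.6 and 21.0 FPKM in Luxi 1, 2 and 3. MYOM2, an M-band protein of the sarcomere, was at 151, 168 and 165 FPKM in the Shandong black animals and at 56.6, 254 and 193 FPKM in the Luxi animals.

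For ACTC1, the 5 nearest genes were PPA2 (r = 0.996), TOMM20, TMEM159, NRAP (r = 0.992) and ENAH (r = 0.992), and 4 of these 5, all but PPA2, were called lower in Luxi cattle. ENAH, a regulator of actin filament growth, was at 134, 36.7 and 83.5 FPKM in Shandong black 1, 2 and 3 and at 4.10, 5.37 and 12.1 FPKM in Luxi 1, 2 and 3. ENAH had the order of ACTC1 within each breed, as a choice by r favours. For TPM3, the 5 nearest genes were EGLN3 (r = 0.994), PLN (r = 0.980), MACF1, GPAM and ATP2A2 (r = 0.969). PLN and ATP2A2, the regulator and the pump of calcium uptake in slow fibres, were at their lowest in Luxi 2, as TPM3 was.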

How the data were processed

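After trimming with Fastp, the authors aligned the reads to ARS-UCD1.2 with HISAT. Per the file headers, StringTie 1.3.3b then assembled each library on the NCBI annotation, using strand. The authors deposited coverage, FPKM and TPM for each transcript, and coverage for each exon. A transcript not listed in a library was counted as 0. Whole-number counts were not used, so precision rests on the number of animals.

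Gene FPKM was the sum of reference transcripts and of same-strand assembled transcripts that had 50% or more of their bases on its exons. Assembled transcripts left out held 21.6% to 29.8% of library FPKM. Genes with a mean of at least 1 FPKM in a breed were tested with limma 3.58.1 in R 4.3.3 (lmFit, eBayes with trend) on log2(FPKM + 1), which understates the change of low genes, with Benjamini-Hochberg adjustment. Calls needed an adjusted p under 0.05 and a 2-fold or larger difference. The procedure was tested on simulated data.

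Alternatives were a pseudocount of 0.1, no filter, TPM, size factors, quantile normalization, reference transcripts only, a limit of 20% on the exons, a replicate block and leaving out each animal. FPKM from exon coverage was added after seeing the data. From each list, called genes and then those of largest difference, up to 3 in all, were named, together with the 5 genes nearest to ACTA1, ACTC1 and TPM3. MYH6, MYL4, MYH3, MYH8, MYOG, CKM, MB, MYL3, MYL2, MYH7, TNNC2 and ATP2A1 were named outside this rule, and the marker lists for other cells are given by counts and sums. The genes and lists were chosen with earlier results of these data known. A gene table of ARS-UCD2.0 was used for names only, and no sequence is printed.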

Additional observations from a re-analysis of the deposited data

Results flagged for a closer look

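Assembled transcripts on the strand opposite to 7 of the 10 genes were listed, and no comparison above uses them. The highest value in a library was 98.5 FPKM at ACTA1, 4.10 at ACTC1, 10.6 at TPM1, 49.3 at TPM2, 4.002 at TPM3, 2.14 at TMOD4 and 4.50 at LMOD2. At ACTA1 and TPM2 they were found in all 6 libraries, with 0.110% to 0.258% and 0.759% to 1.71% of the FPKM of the gene. They were found in 3 libraries or fewer at the other 5 genes. Whether they are transcripts of their own or reads of the gene given the wrong strand was not tested.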

How the results depend on the processing

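Over all genes, 251 were called, 151 of them higher and 100 lower in Luxi cattle. The count was 63 with no filter, 163 with reference transcripts only and 135 with the replicate block, and it ranged from 3 (without Shandong black 3) to 597 (without Luxi 1) when 1 animal was left out. Size factors gave 115 higher and 150 lower, quantile normalization 124 and 164, and TPM 145 and 132. They moved the median difference of all genes from 0.13 to 0.02, 0.003 and 0.05. Of the 10 thin filament genes, 1 was called, 2 with TPM and 2 with quantile normalization, and 0 to 3 when 1 animal was left out. ACTC1 was called under each of the 9 alternatives that kept all animals. Of the related genes, 3 were called, 6 with TPM, 6 with size factors, 6 with quantile normalization, 0 with no filter, 0 with reference transcripts only, 1 with the replicate block, and 0 to 7 when 1 animal was left out.

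Leaving out 1 animal turned the sign of 4 of the 10 thin filament genes and, of the related genes named above, ACTA2. The range was −0.63 to 0.45 for ACTA1, −0.45 to 0.19 for TMOD1 and −0.29 to 0.74 for ACTA2, with the turn without Luxi 1, and −0.014 to 0.54 for TPM2 and −0.66 to 0.097 for NEB, with the turn without Luxi 3. With reference transcripts only, the mean shares of tropomyosin in Shandong black cattle were 22.3% for TPM1, 4.98% for TPM2 and 72.7% for TPM3, and in Luxi cattle 48.6% for TPM1 and 36.9% for TPM2, since most of TPM2 lay on assembled transcripts in 4 animals. The cause of the other changes was not tested.

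The replicate numbers of the 2 breeds name different animals, and same-numbered animals deviated together only weakly (r = 0.084, 0.087 and 0.075 over genes), although each animal correlated best with its own number. The replicate block is therefore not part of the main comparison and counts only among the alternative settings, and with it ACTC1 stayed called. TNNI1, NRAP and FHOD3 were not called with the block (adjusted p 0.0698, 0.0785 and 0.0885, limma), and TNNT3 was (0.0385), so the 1 related gene called with it is none of the 3. The order of levels was not rerun without single animals, since 5 animals cannot reach a p under 0.05. The precision of every value is limited by 3 animals in each breed.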
